A study of Mus musculus with 11 samples.

Results

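The genes described here are 36 genes of lysosomes and autophagy in cultures of mouse hippocampal neural stem cells (NSCs), taken from the 53801 genes listed for each RNA sequencing library. They were chosen by symbol, as 24 lysosome genes and 12 autophagy genes. No measured value was a criterion, but earlier results of these data were known when the genes were chosen. The 24 lysosome genes comprise 16 hydrolases and membrane proteins, the 3 transcription factor genes of the TFEB family, and 5 subunits or accessory proteins of the vacuolar proton pump (V-ATPase). All 36 were matched to 1 gene identifier each, and all 36 passed the filter on low counts in every comparison.

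The cells were primary NSCs grown from the hippocampus of mid-gestation mouse embryos. Treated cultures received 4HBP at 1 µM and control cultures its solvent, EtOH, over 7 days in both cases. Proliferation medium held the growth factors EGF and bFGF, and differentiation medium held neither and more of the supplement B27. The groups had 3 libraries of 4HBP and 3 of control cultures in proliferation medium, and 3 of 4HBP and 2 of control cultures in differentiation medium. The labels name no transgene, deletion or strain. The labels spell out 4HBP as 4-Hydroxybenzoic acid, whereas the study's own text spells it out as 4-hydroxybenzophenone, so the text uses the abbreviation. Nothing in the labels says that libraries of a group came from separate cultures or embryos, and p-values therefore measure only the spread between these libraries, which may be technical.

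Lysosomes are acidic organelles in which hydrolases such as cathepsins break down proteins, lipids and sugars. In autophagy, cargo is enclosed by a double membrane, to which proteins of the LC3 and GABARAP families are joined, and is delivered to lysosomes. TFEB, TFE3 and MITF are related transcription factors that bind the sequence CACGTG, found near the start of many lysosome genes. The kinase complex mTORC1, recruited to the lysosome by Rag GTPases, holds TFEB and TFE3 in the cytoplasm when nutrients are plentiful, so their activity is set largely by location and not by RNA level. In the brain, quiescent NSCs are known for abundant lysosomes, and microglia for strong expression of lysosomal proteases.

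Each library held 20822921 to 23438463 expected counts. In counts per 1000000 counts of the library (CPM), the smallest detectable amount, set at 3 counts, came to between 0.128 and 0.144, for counting error only. Replicates varied more in proliferation medium (biological coefficient of variation 0.117) than in differentiation medium (0.0368), so 4HBP and control libraries were compared within each medium separately. Comparisons between the media, and of the 4HBP effects, had to take libraries of both media into a shared fit. Their coefficients were 0.0843 in controls, 0.094 under 4HBP and 0.0907 for the 4HBP effects. Their SEs and p-values therefore rest on a spread shared by both media. In proliferation medium, 4HBP replicate 3 stood apart from the other 2 of its group, with a mean chi-square per gene of 23.8 and 21.4 against 5.34 between those 2. The NSC markers Nes, Sox2, Vim and Fabp7 were present in all 11 libraries. The 12 markers of microglia and macrophages summed to 3.87 CPM at most in any library, with Aif1 and Itgam at or near 0. The 8 neuron markers summed to between 972 and 1129 CPM across the libraries, most of it Map2. Among them Rbfox3, a marker of mature neurons, stayed at or below 3.0 CPM also in differentiation medium.

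The promoters of 31 of the 36 genes, from 250 bases before to 50 bases after the annotated start, were taken from RefSeq (GRCm38). CACGTG, which reads the same on both strands, occurred in 12 of these 31, being 10 of 22 lysosome genes and 2 of 9 autophagy genes, against 8.09% of all 27025 genes with such a promoter. The longer TCACGTG, searched on both strands and always containing the shorter motif, occurred in 10 of the 31 against 4.29% of all genes. The stretches around the match are shown for 7 of the 12 genes, those with a match wholly before the start and no stretch overlapping an annotated exon, because they carry the sequence that TFEB-family proteins recognise, with CACGTG in capitals and each written along the strand of its gene. Lamp1 (chr8:13159161-13175338), the major lysosomal membrane glycoprotein, held 4 matches within 73 bases of chr8:13159088-13159160 on the plus strand, directly before its start.
Lamp1: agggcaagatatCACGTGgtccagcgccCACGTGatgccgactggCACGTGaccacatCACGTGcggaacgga
The lysosomal hydrolase genes Glb1 (chr9:114401018-114401047, plus strand), Gaa (chr11:119267811-119267840, plus strand) and Lgmn (chr12:102439124-102439153, minus strand) held 1 match each in the bases shown.
Glb1: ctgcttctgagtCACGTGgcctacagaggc
Gaa: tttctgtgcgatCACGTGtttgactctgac
Lgmn: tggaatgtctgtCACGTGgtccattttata
The proton pump gene Atp6v1a (chr16:44139373-44139402, minus strand) and the autophagy genes Atg7 (chr6:114670952-114670981, plus strand) and Atg5 (chr10:44268313-44268338, plus strand) also held 1 each.
Atp6v1a: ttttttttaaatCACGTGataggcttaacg
Atg7: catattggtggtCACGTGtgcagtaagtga
Atg5: cggagcgcttgcCACGTGgtcttggt
RefSeq lists some genes with other starts than the gene spans of GENCODE used elsewhere in the text. The starts used for Lgmn, Atp6v1a and Atg7 lay 721, 446 and 27999 bases inside those spans, so these 3 stretches are within the gene as GENCODE draws it. A match is a description of the sequence and not evidence of binding.

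To ask whether 4HBP altered these genes in dividing NSCs, 4HBP and control libraries were compared in proliferation medium. Sqstm1 and Hexa rose and Lgmn fell, and the other 33 genes did not pass the test (edgeR quasi-likelihood test, adjusted p under 0.05 over all 14449 genes tested). Thus 3 of 36 genes were called, 2 higher and 1 lower, while 7.43% of all genes were called, 3.74% higher and 3.69% lower. Both counts moved with the setting, from 107 genes called in all without control replicate 1 to 2668 with all libraries in 1 fit, in which 8 in place of 2 lysosome genes were called. The median log2 fold change of the 36 genes was 0.05, beside 0.00 over all genes, and the median absolute change was 0.09, beside 0.17 over all genes.

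Sqstm1 (ENSMUSG00000015837, chr11:50199366-50210827), encoding the cargo receptor p62 that ties ubiquitinated proteins to LC3, had the largest change of the 36. Its level was 307, 344 and 453 CPM in the 4HBP libraries and 241, 230.3 and 230.1 CPM in the control libraries. All 4HBP libraries lay above all controls, with replicate 3, the library that stood apart, highest. The log2 fold change was 0.62 ± 0.12 (SE), a 1.53-fold rise, with an edgeR adjusted p of 0.0181. Without 4HBP replicate 3 it was 0.47 (adjusted p = 0.00509), whereas the call was lost without control replicate 1 (adjusted p = 0.0805) or control replicate 2 (adjusted p = 0.0906).

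Hexa (ENSMUSG00000025232, chr9:59539540-59565109), encoding the alpha subunit of beta-hexosaminidase, which degrades gangliosides, was at 96.5, 98.7 and 119 CPM with 4HBP and at 79.8, 82.7 and 81.2 CPM in controls. The groups did not overlap, and the log2 fold change was 0.33 ± 0.08 (SE, edgeR adjusted p = 0.0387). The call held without 4HBP replicate 3 (adjusted p = 0.0346) but was lost when any 1 of the other 5 libraries was left out, with adjusted p up to 0.155. The control libraries lay close together and the 4HBP group was spread mainly by replicate 3.

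Lgmn (ENSMUSG00000021190, chr12:102394084-102439813), encoding the asparaginyl endopeptidase legumain, was at 112, 102 and 109 CPM with 4HBP and at 146, 140.2 and 128 CPM in controls. Every 4HBP library was below every control, and the gene fell by 0.38 ± 0.08 on the log2 scale (SE, edgeR adjusted p = 0.0218). The call was lost without 4HBP replicate 2 (adjusted p = 0.0832) or without control replicates 1 or 2 (adjusted p = 0.105 and 0.103). Psap (chr10:60277627-60302597), encoding the precursor of the saposins, which help degrade sphingolipids, was at 742, 742 and 733 CPM with 4HBP and at 898, 904 and 846 CPM in controls. It did not pass the test, with a log2 fold change of -0.29 ± 0.08 (SE, edgeR adjusted p = 0.0505), although its groups did not overlap either.

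Astrocyte marker levels moved in the same direction as Lgmn and Psap. The 7 astrocyte markers summed to between 3672 and 4498 CPM with 4HBP and between 5214 and 6445 CPM in controls, and 4 of the 7 fell (Gfap, Aqp4, Aldoc and Gja1, with log2 fold changes from -0.85 to -0.66). The 6 proliferation markers summed to between 439 and 788 CPM with 4HBP and between 806 and 939 CPM in controls, with none of the 6 called. Their part in the result was not tested, and in bulk RNA fewer cells of a type and less RNA per cell cannot be told apart. Of the 12 markers of microglia and macrophages, which express legumain strongly, 10 in 4HBP and 9 in control libraries never exceeded 3 counts in any library, with Aif1, Cx3cr1 and Tmem119 at 0 in all 6. They summed to between 1.68 and 3.12 CPM with 4HBP and between 2.19 and 3.87 CPM in controls, most of it P2ry12.

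**Figure D1:**
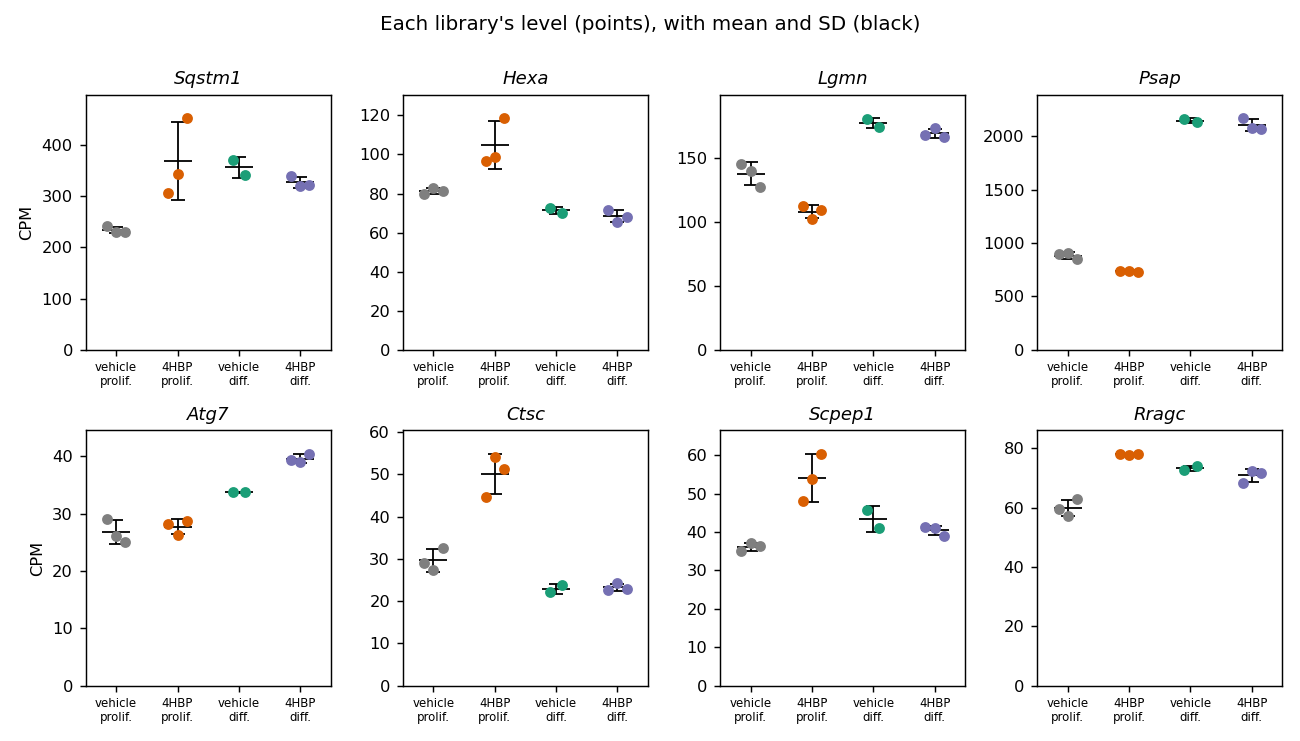
Expression in CPM (linear axes from 0) of 5 lysosome and autophagy genes and of 3 further pathway genes (Ctsc, Scpep1, Rragc) in each library, by group, with black marks for the mean and SD. The 4HBP libraries in proliferation medium lie above their controls for Sqstm1, Hexa, Ctsc, Scpep1 and Rragc and below them for Lgmn and Psap, while Atg7 separates in differentiation medium only.

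Of the 16 hydrolases and membrane proteins, Hexa rose, Lgmn fell and 14 did not pass the test. DESeq2 and limma with voom each called 3 of the 16, and limma on log2(CPM + 1) called 0. The cathepsin genes Ctsl, Ctsz and Ctsa, the alpha-glucosidase gene Gaa, the sialidase gene Neu1 and the membrane protein gene Lamp2 had every 4HBP library above every control, with log2 fold changes from 0.12 for Lamp2 to 0.28 for Neu1 and edgeR adjusted p values of 0.0678 or more. Across the 36 genes, 12 had non-overlapping groups with 4HBP higher and 2 with 4HBP lower, against 19.3% and 12.6% of all genes. Lamp1, Ctsb, Ctsd, Cd63, Glb1, Grn and Mcoln1 had overlapping groups.

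None of the 3 TFEB-family genes was called by edgeR, DESeq2 or either limma test. Of the 3, 1 (Tfe3) had an unadjusted p under 0.05 in edgeR, as did 3621 of all 14449 genes tested. Tfeb (chr17:47737030-47792419) was at 17.2, 17.3 and 13.4 CPM with 4HBP and at 17.6, 13.9 and 16.2 CPM in controls, with a log2 fold change of -0.02 ± 0.15 (SE). Mitf (chr6:97807052-98021349) was at 6.91, 6.85 and 8.06 CPM with 4HBP and at 7.17, 6.09 and 7.74 CPM in controls, a log2 fold change of 0.02 ± 0.14 (SE). Both sets of libraries overlapped, and the sign of both genes turned when single libraries were left out. Tfe3 (chrX:7762560-7775202) was at 66.3, 69.3 and 64.0 CPM with 4HBP and at 55.0, 54.6 and 60.1 CPM in controls. Its groups did not overlap, but the log2 fold change of 0.20 ± 0.08 (SE) had an edgeR adjusted p of 0.151.

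None of the 5 V-ATPase genes was called in proliferation medium by edgeR (0 at an unadjusted p under 0.05), DESeq2 or either limma test, with log2 fold changes between -0.02 for Atp6v0a1 and 0.17 for Atp6v1h. Among the autophagy genes other than Sqstm1, values ran from -0.13 for Ulk1, encoding the kinase that starts autophagy, to 0.19 for Atg12, encoding a ubiquitin-like protein of the conjugation machinery. The genes of the LC3 and GABARAP families, whose proteins are joined to the autophagosome membrane, lay between -0.06 for Gabarapl2 and 0.12 for Gabarapl1. Their adjusted p values were 0.308 or more (edgeR).

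**Figure D2:**
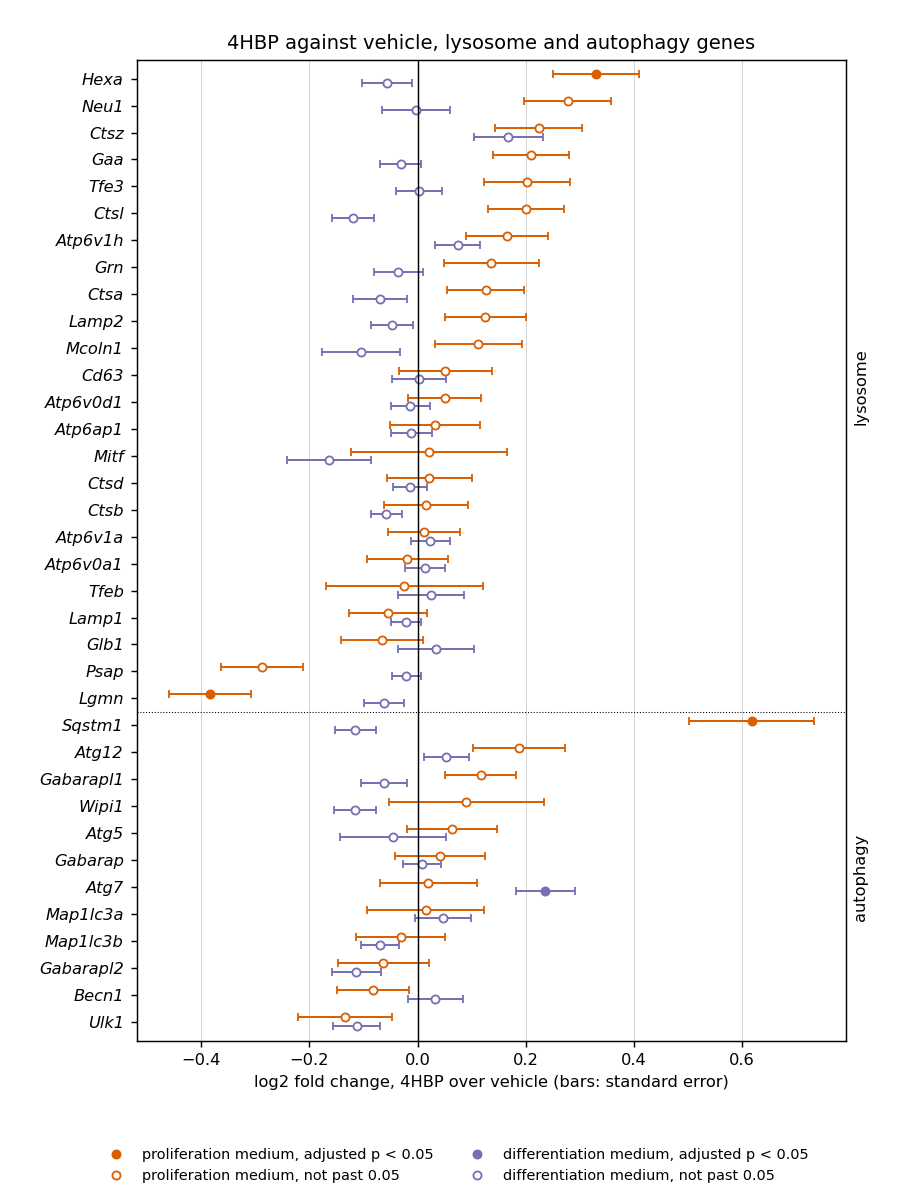
Log2 fold change of 4HBP over control (horizontal axis) for the 24 lysosome genes above the dotted line and the 12 autophagy genes below it, with bars for the standard error, in proliferation medium (orange) and differentiation medium (violet). Filled points passed an edgeR adjusted p of 0.05, and these are Hexa, Lgmn and Sqstm1 in proliferation medium and Atg7 in differentiation medium.

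A further 130 genes of the same pathways, none of them among the 36, were read in the same fit. Of 53 other lysosomal genes tested, 4 rose and 1 fell, while 7.43% of all genes were called, 3.74% higher and 3.69% lower. DESeq2 called 7 of this list, limma with voom 5 and limma on log2(CPM + 1) 0. Ctsc, encoding the dipeptidyl peptidase that activates serine proteases of immune cells, was at 44.7, 54.2 and 51.3 CPM with 4HBP and at 29.1, 27.3 and 32.5 CPM in controls, a log2 fold change of 0.72 ± 0.10 (SE, edgeR adjusted p = 0.00656). Scpep1, encoding a serine carboxypeptidase, was at 48.0, 53.9 and 60.5 CPM with 4HBP and at 35.0, 37.0 and 36.3 CPM in controls, a log2 fold change of 0.55 ± 0.08 (SE, edgeR adjusted p = 0.00996). No 4HBP library of either gene reached down to a control. Smpd1, encoding acid sphingomyelinase, fell by 0.40 on the log2 scale (edgeR adjusted p = 0.0331). Tmem192 (0.46) also rose, and was named after its value was seen.

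Of 23 genes of mTORC1 and the Rag GTPases, 3 rose and the other 20 were not called (edgeR), while 7.43% of all genes were called. Of the 23, 11 had an unadjusted p under 0.05, as did 3621 of all 14449 genes tested. Rragc, a Rag GTPase that recruits TFEB and TFE3 to the lysosome, was at 77.9, 77.8 and 78.2 CPM with 4HBP and at 59.4, 57.3 and 62.9 CPM in controls, a log2 fold change of 0.35 ± 0.07 (SE, edgeR adjusted p = 0.0227), and was given by library after its values were seen. Rragb rose by 0.40 (adjusted p = 0.0275) and Sesn2, a stress-induced inhibitor of mTORC1, by 0.58 (adjusted p = 0.04997). The spread of Sesn2 was wide, at 198, 248 and 264 CPM with 4HBP and 142, 127 and 192 CPM in controls. Of the 13 other V-ATPase genes, Atp6v1g1 rose (0.34, adjusted p = 0.0294) and 12 were not called. Of 38 other autophagy genes, 0 were called by edgeR, DESeq2 or either limma test, 2 had an unadjusted p under 0.05 (edgeR), and the median log2 fold change was 0.04. Ctsc, Scpep1, Smpd1, Atp6v1g1, Sesn2 and Rragb each lost the call in at least 1 of the 6 fits without a single library, with adjusted p up to 0.186. Whether the calls of Rragc and Tmem192 in proliferation medium held in these fits was not examined.

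In differentiation medium, Atg7 alone of the 36 genes passed the test, while 2.55% of the 15484 genes tested passed, 1.26% higher and 1.29% lower. Atg7 (ENSMUSG00000030314, chr6:114643097-114860614), encoding the enzyme that activates LC3 and ATG12 for conjugation, was at 39.3, 39.0 and 40.5 CPM with 4HBP and at 33.8 and 33.7 CPM in controls. The 4HBP libraries lay above both controls, and the log2 fold change was 0.24 ± 0.05 (SE, edgeR adjusted p = 0.0318). The call was lost without any 1 of the 5 libraries, with adjusted p between 0.0605 and 0.217, and it was also lost when counts were divided by transcript length. In proliferation medium its log2 fold change was 0.02 ± 0.09 (SE), and the effects in the 2 media did not differ past the threshold (edgeR adjusted p = 0.232).

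The other 35 genes had log2 fold changes between -0.16 for Mitf and 0.17 for Ctsz in differentiation medium, and the median absolute change of the 36 was 0.05, beside 0.09 over all genes. Of the 24 lysosome genes, 0 were called by edgeR (2 at an unadjusted p under 0.05), DESeq2 or either limma test. Over all 15484 genes tested, 2460 had an unadjusted p under 0.05 in edgeR. Tfeb was at 37.5, 33.9 and 36.5 CPM with 4HBP and at 36.8 and 34.1 CPM in controls. Tfe3 was at 64.1, 64.0 and 64.4 CPM with 4HBP and at 64.0 and 64.6 CPM in controls. Mitf was at 23.8, 23.98 and 20.2 CPM with 4HBP and at 25.1 and 25.9 CPM in controls, which put every 4HBP library below both controls (edgeR adjusted p = 0.317). Groups did not overlap for 4 genes with 4HBP higher and 10 with 4HBP lower, against 15.0% and 18.0% of all genes.

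Of the other pathway genes in differentiation medium, only Laptm4b and Scarb2 were called among 54 other lysosomal genes, while 2.55% of all genes were called. Laptm4b, encoding a lysosomal membrane protein, rose by 0.17 on the log2 scale (edgeR adjusted p = 0.0335), and Scarb2, encoding the receptor that carries glucocerebrosidase to lysosomes, fell by 0.12 (edgeR adjusted p = 0.0336). Both calls were lost without control replicate 1 (adjusted p = 0.272 and 0.239). By edgeR, DESeq2 and both limma tests, 0 genes were called among the 13 other V-ATPase, 23 mTORC1 and Rag, and 38 other autophagy genes. Of these, 1, 9 and 6 had an unadjusted p under 0.05 in edgeR, beside 2460 of all 15484 genes tested.

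The 4HBP effects in the 2 media were then compared with each other in 1 fit of all 11 libraries. Sqstm1 was the only one of the 36 genes past the threshold, while 4.49% of 15920 genes passed, 2.01% with a positive and 2.48% with a negative difference. In differentiation medium Sqstm1 was at 339.7, 320.3 and 323 CPM with 4HBP and at 371 and 342 CPM in controls, where every 4HBP library was below both controls but the change of -0.12 ± 0.04 (SE) did not pass the test (edgeR adjusted p = 0.138). The effect in proliferation medium exceeded that in differentiation medium by 0.72 ± 0.14 on the log2 scale (SE, edgeR adjusted p = 0.0142). The call was lost without either control library in differentiation medium, with adjusted p up to 0.0861. Hexa (0.38, adjusted p = 0.0512), Ctsl (0.31, adjusted p = 0.055) and Lgmn (-0.33, adjusted p = 0.0592) came next and did not pass. Thus 0 of the 24 lysosome genes were called by edgeR (6 at an unadjusted p under 0.05) and by limma on log2(CPM + 1), whereas DESeq2 and limma with voom each called 4. Over all 15920 genes, 3165 had an unadjusted p under 0.05 in edgeR.

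Differentiation medium was compared with proliferation medium to describe these genes as growth factors were withdrawn, once in controls and once under 4HBP, with no library in common. In controls, 22 of the 36 genes rose, 10 fell and 4 were not called, while 62.9% of all 15308 genes tested were called, 31.4% higher and 31.5% lower. The median log2 fold change of the 36 was 0.27, beside 0.02 over all genes. Under 4HBP, 20 rose, 11 fell and 5 were not called, while 67.4% of all 15050 genes were called, 33.3% higher and 34.1% lower, and the median was 0.23 beside 0.00. In both comparisons 20 genes rose and 10 fell, none was called in opposite directions, and 3 (Tfe3, Atp6v0a1 and Becn1) were called in neither, all by counts not divided by transcript length. Per length, Sqstm1 was called in opposite directions (0.20 in controls and -0.53 under 4HBP). Ctsa and Sqstm1 were called in controls only and Neu1 under 4HBP only.

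The cultures also differed in their cell type markers between the media. In controls the 8 NSC markers summed to between 4405 and 5191 CPM in proliferation medium and between 1766 and 1807 CPM in differentiation medium. The 8 markers of the oligodendrocyte lineage went the other way, from between 3241 and 3916 CPM to between 7743 and 8178 CPM. The 7 astrocyte markers also rose in sum, from between 5214 and 6445 CPM to between 8009 and 8129 CPM. Some single markers went against their sum. By mean in controls, Gfap fell from 2306 to 1591 CPM and Aldh1l1 from 801 to 283 CPM. The NSC markers Prom1 (16.2 to 51.6 CPM) and Msi1 (107 to 139 CPM) rose. The 6 proliferation markers fell from between 806 and 939 CPM to between 158 and 178 CPM. Their part in the changes of the lysosome and autophagy genes was not tested.

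**Figure D3:**
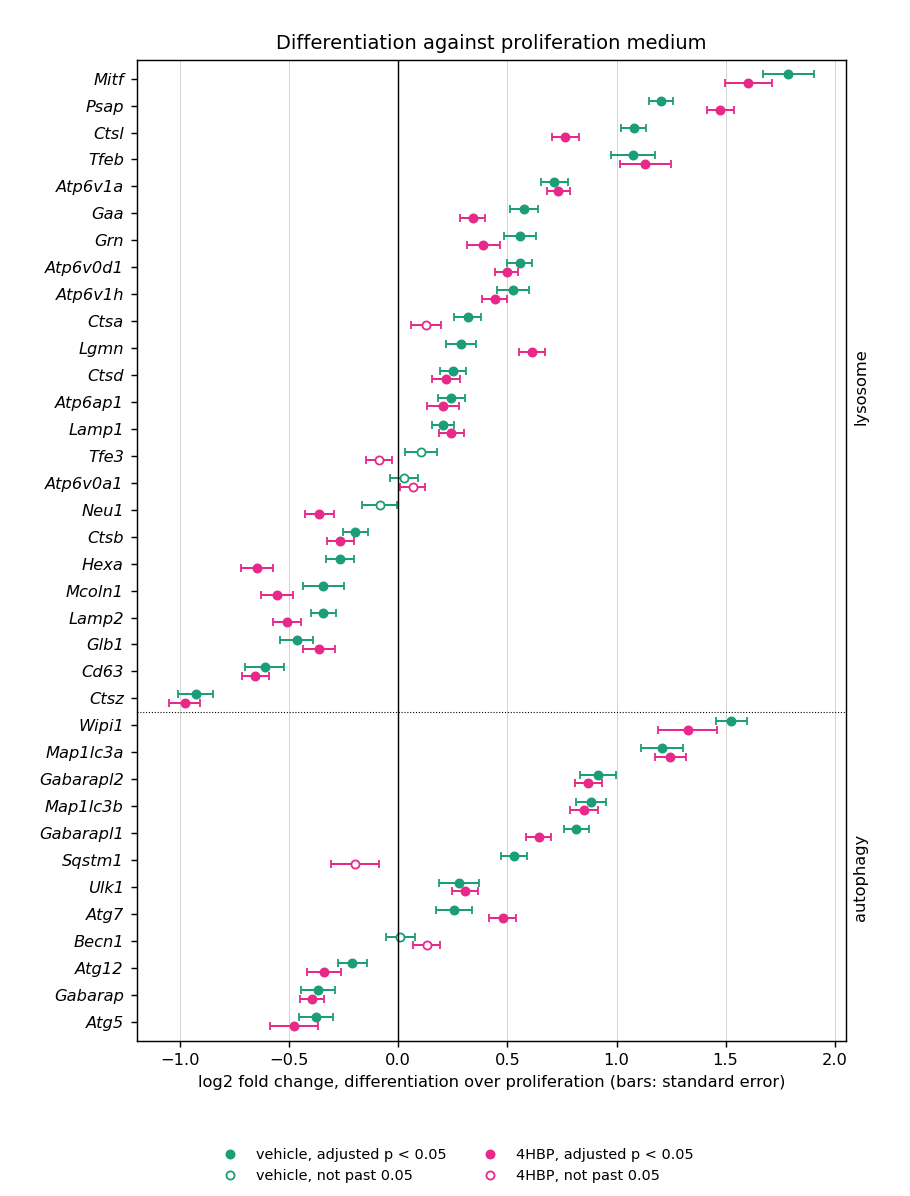
Log2 fold change of differentiation over proliferation medium (horizontal axis) for the lysosome genes above the dotted line and the autophagy genes below it, with bars for the standard error, in controls (green) and under 4HBP (pink). Filled points passed an edgeR adjusted p of 0.05. Both colours lie on the same side of 0 for every gene filled in both, while Sqstm1 lies at 0.53 in controls and at -0.20 under 4HBP.

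The TFEB-family genes Mitf and Tfeb were among the 6 largest rises. In controls Mitf went from 7.17, 6.09 and 7.74 CPM in proliferation medium to 25.1 and 25.9 CPM in differentiation medium, a 3.45-fold rise (log2 fold change 1.79 ± 0.12, SE, edgeR adjusted p = 1.78e-06). Tfeb went from 17.6, 13.9 and 16.2 CPM to 36.8 and 34.1 CPM, a 2.11-fold rise (1.08 ± 0.10, adjusted p = 1.65e-05). Neither gene's groups overlapped, and under 4HBP the log2 fold changes were 1.60 for Mitf and 1.132 for Tfeb. Tfe3, the family member with the highest level, was at 55.0, 54.6 and 60.1 CPM and then at 64.0 and 64.6 CPM, a log2 fold change of 0.11 ± 0.07 (SE) that did not pass (edgeR adjusted p = 0.24). Per transcript length, in control differentiation medium Tfe3 was at 43.1 ± 3.92 TPM (SD, n = 2), Tfeb at 29.5 ± 1.27 TPM and Mitf at 12.3 ± 0.297 TPM, each step larger than the spread.

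Of the 16 hydrolases and membrane proteins, 8 rose, 7 fell and Neu1 was not called in controls. Psap rose from 898, 904 and 846 CPM to 2162 and 2130 CPM, a log2 fold change of 1.20 ± 0.06 (SE, edgeR adjusted p = 2.24e-07). Ctsl, encoding cathepsin L, rose from 139, 135 and 137 CPM to 315 and 295 CPM (1.08 ± 0.06, adjusted p = 5.23e-07). The differentiation libraries of both genes lay far above every proliferation library. Gaa (0.58), the progranulin gene Grn (0.56), Ctsa (0.32), Lgmn (0.29), Ctsd (0.25) and Lamp1 (0.21) rose less. In all, 10 of the 36 genes (Lamp1, Ctsb, Ctsd, Hexa, Lgmn, Mcoln1, Atp6ap1, Ulk1, Atg7 and Atg12) lost the call without 1 of the 2 control differentiation libraries, with adjusted p up to 0.163, and Ulk1 also without control proliferation replicate 1 (adjusted p = 0.0749). Under 4HBP, Ctsd and Atp6ap1 lost it without single libraries, with adjusted p up to 0.123. Ctsa (adjusted p = 0.00781) and Tfe3 (adjusted p = 0.012) became called under 4HBP without proliferation replicate 3, and Sqstm1 (-0.29, adjusted p = 0.0262) without proliferation replicate 1.

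Of the 6 largest falls, 4 were in this group. Ctsz, encoding the carboxypeptidase cathepsin Z, fell from 49.2, 50.3 and 52.9 CPM to 29.6 and 26.8 CPM, a log2 fold change of -0.93 ± 0.08 (SE, edgeR adjusted p = 8.34e-06). Cd63, encoding a tetraspanin of late endosomes and lysosomes, fell from 337, 274 and 321 CPM to 224 and 206 CPM (-0.61 ± 0.09, adjusted p = 0.000256). Both genes fell to a like extent under 4HBP (-0.98 and -0.66). Glb1, encoding beta-galactosidase, fell from 38.4, 34.7 and 36.6 CPM to 27.8 and 28.1 CPM (-0.47 ± 0.08, adjusted p = 0.00053). Lamp2 fell from 327, 326 and 328 CPM to 267 and 278 CPM (-0.34 ± 0.06, adjusted p = 0.000616), in the opposite direction to its relative Lamp1, which went from 954, 930.01 and 938 CPM to 1151 and 1140 CPM. The calcium channel gene Mcoln1 (-0.34) and Hexa (-0.27) also fell, as did Ctsb by counts (-0.20) but not per transcript length.

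Of the 5 V-ATPase genes, 4 rose in controls and 4 under 4HBP. In controls Atp6v1a, the catalytic subunit, rose by 0.72 ± 0.06 on the log2 scale (SE, edgeR adjusted p = 8.82e-06), Atp6v0d1 by 0.56, Atp6v1h by 0.53 and the accessory protein gene Atp6ap1 by 0.24. Atp6v0a1 did not pass (0.03 ± 0.07, adjusted p = 0.719). Of the 13 other V-ATPase genes 8 rose and 1 fell, led by Atp6v1f (0.92) and Atp6v0b (0.73). Atp6v1d, the one that fell by counts (-0.68), was higher when counts were divided by transcript length (0.28, adjusted p = 0.012).

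Of the 12 autophagy genes, 8 rose, 3 fell and Becn1, encoding a subunit of the lipid kinase complex of autophagosome formation, was not called in controls. Wipi1, encoding a protein that binds the lipid this complex makes, rose from 44.3, 46.8 and 41.4 CPM to 133 and 136 CPM (1.53 ± 0.07, SE, edgeR adjusted p = 2.56e-07). Map1lc3a rose from 28.2, 27.8 and 22.5 CPM to 62.8 and 65.0 CPM (1.21 ± 0.10, adjusted p = 6.01e-06). Its relatives Gabarapl2 (0.91), Map1lc3b (0.88) and Gabarapl1 (0.82) rose as well. Gabarap, of the same family, fell from 331.5, 301 and 276 CPM to 254 and 242 CPM (-0.37 ± 0.08, adjusted p = 0.00264), a call that was lost per transcript length (-0.19, adjusted p = 0.0842).

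By counts, all 5 genes of the LC3 and GABARAP families were thus called in controls, 4 higher and 1 lower, and under 4HBP they had the same directions. Atg5, whose protein is joined to ATG12, fell from 30.6, 29.6 and 28.9 CPM to 23.4 and 24.96 CPM (-0.38 ± 0.08, SE, edgeR adjusted p = 0.00243), and Atg12 fell by 0.21 on the log2 scale (adjusted p = 0.0187) by counts but did not pass per length (-0.17, adjusted p = 0.0834). Ulk1 (0.28) and Atg7 (0.26) rose by counts but not per transcript length, each with an adjusted p of 0.0229. Sqstm1 rose from 241, 230.3 and 230.1 CPM to 371 and 342 CPM in controls (0.53 ± 0.06, adjusted p = 5.17e-05). Under 4HBP it was at 307, 344 and 453 CPM in proliferation medium and 339.7, 320.3 and 323 CPM in differentiation medium, where the libraries overlapped and the change of -0.20 ± 0.11 (SE) did not pass (adjusted p = 0.141), although per transcript length it did (-0.53, adjusted p = 0.00233).

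**Figure D4:**
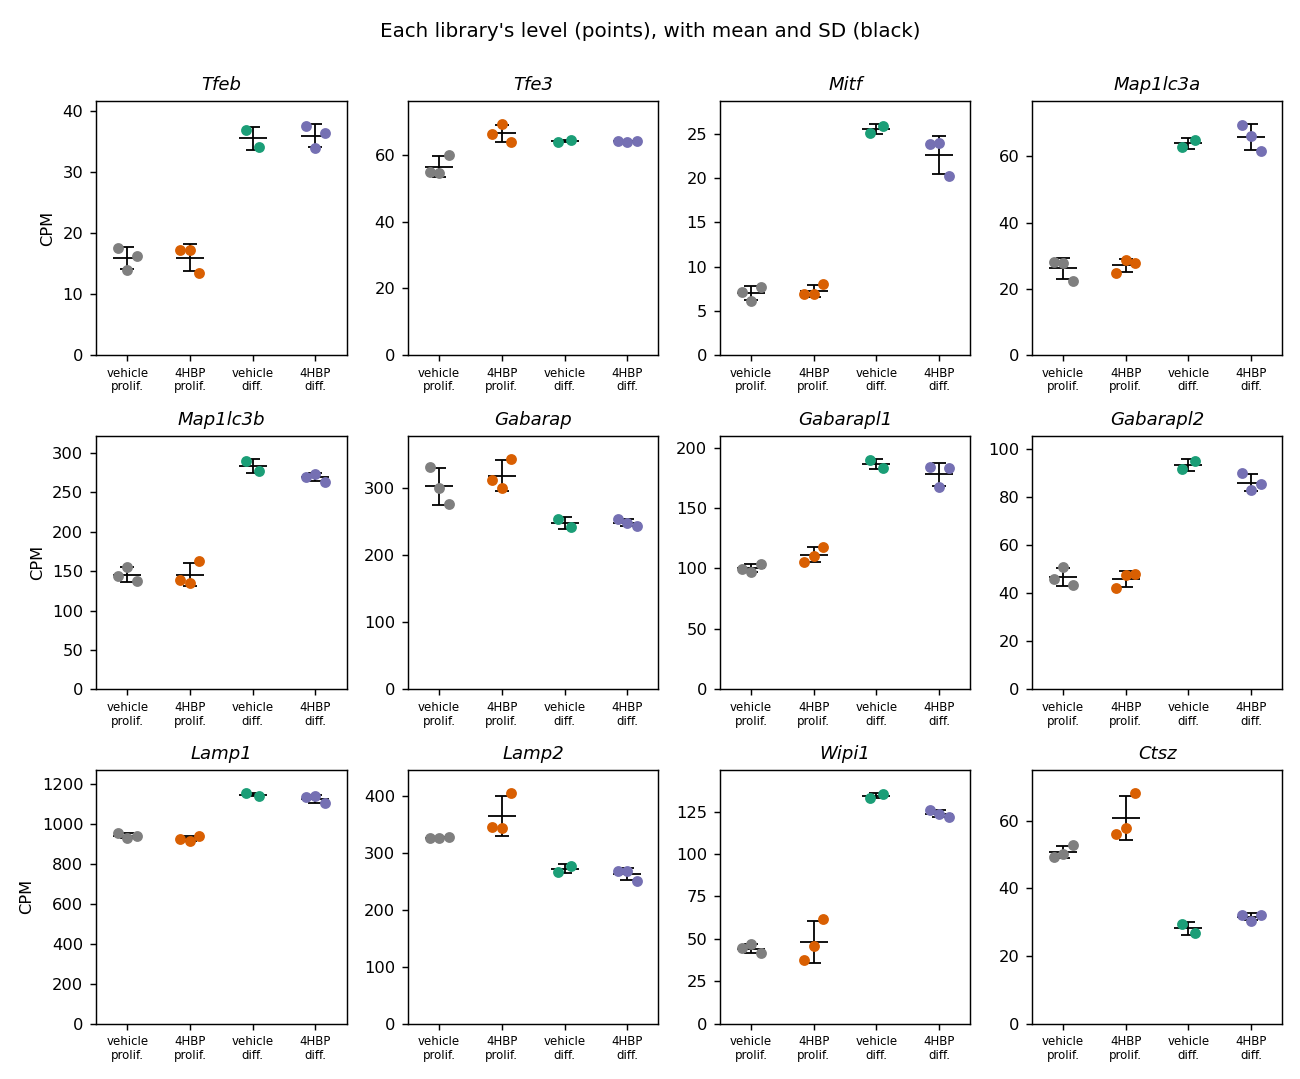
Expression in CPM (linear axes from 0) of the TFEB family, the LC3 and GABARAP families, Lamp1, Lamp2, Wipi1 and Ctsz in each library, by group, with black marks for the mean and SD. Tfeb, Mitf, Map1lc3a, Map1lc3b, Gabarapl1, Gabarapl2, Lamp1 and Wipi1 are higher and Gabarap, Lamp2 and Ctsz are lower in the differentiation libraries, while Tfe3 in 4HBP proliferation libraries is at the level of the differentiation libraries.

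The further pathway genes were also read in controls between the media, where 31.4% of all genes were called higher and 31.5% lower. Of 54 other lysosomal genes, 30 rose and 8 fell, with the protease gene Ctsf (1.76) and the sulfatase gene Arsb (1.295) the largest rises and the protease gene Ctsh (-1.76) and the acid ceramidase gene Asah1 (-1.07) the largest falls. Of 38 other autophagy genes, 22 rose and 5 fell, with the reticulophagy receptor gene Retreg1 (1.63) and the fusion protein gene Vamp8 (1.28) the largest rises and Atg3 (-0.47) and Rb1cc1 (-0.41) the largest falls. The genes of mTORC1 and the Rag GTPases were divided, with 10 of 23 higher and 5 lower. The mTOR inhibitor gene Deptor (1.61) and the folliculin gene Flcn (0.90) rose most, and Akt1s1 (-0.91) and Lamtor2 (-0.58) fell most. All of these passed an edgeR adjusted p of 0.05.

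The counts above are not divided by transcript length, and for some genes the mean length of the transcripts that RSEM assigned reads to differed between the media. The effective length of Ctsb was 3548 ± 125 bases (SD, n = 3) in control proliferation medium and 2566 ± 12.1 bases (SD, n = 2) in control differentiation medium. Cd63 went from 635 ± 10.4 to 889 ± 4.6 bases and Sqstm1 from 1387 ± 1.4 to 1814 ± 16.8 bases, whereas 4HBP libraries were close to the controls of the same medium. Over all genes, 16.2% had lengths that differed by more than 0.25 on the log2 scale.

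With an offset for these lengths, 21 of the 36 genes were higher, 7 lower and 8 not called in controls, and 21 higher, 12 lower and 3 not called under 4HBP. Ctsb, encoding cathepsin B, was lower by counts (-0.20 in controls, -0.26 under 4HBP) and higher per length (0.32, edgeR adjusted p = 0.00285, and 0.27, adjusted p = 0.0166), so its direction rests on the scale. Cd63 was lower on both scales and more so per length (-1.04). Sqstm1 remained higher per length in controls (0.20, adjusted p = 0.034), and under 4HBP it was lower (-0.53, adjusted p = 0.00233). Ulk1, Atg7, Gabarap and Atg12 were not called per length in controls (-0.06, -0.04, -0.19 and -0.17). Under 4HBP, Ulk1 was not called per length (-0.11), Ctsa was higher (0.34, adjusted p = 0.00363), and Tfe3 was lower (-0.35, adjusted p = 0.00227). In proliferation medium the 4HBP effects on Sqstm1 (0.63, adjusted p = 0.0228) and Lgmn (-0.37, adjusted p = 0.0391) passed per length, and that on Hexa did not (0.34, adjusted p = 0.061).

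**Figure D5:**
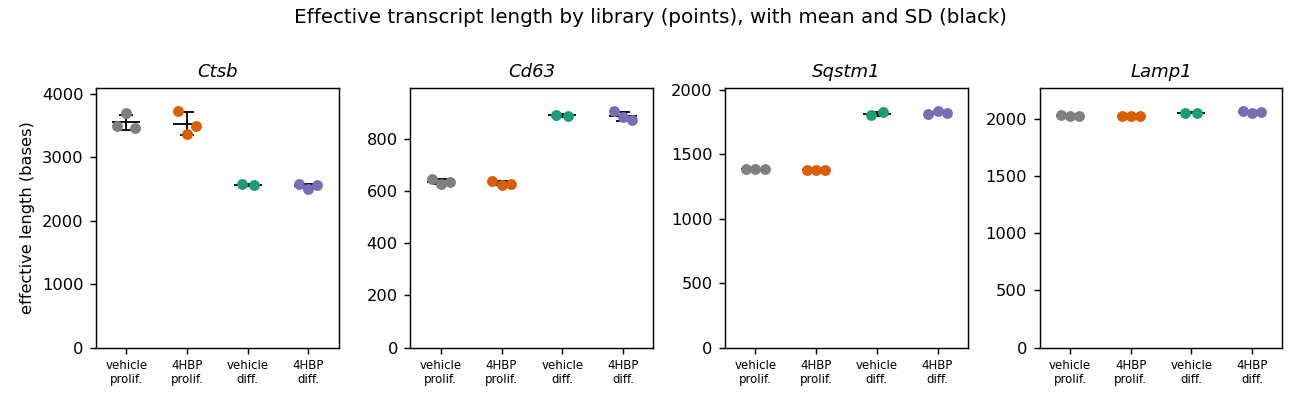
Effective transcript length in bases (linear axes from 0) assigned by RSEM to Ctsb, Cd63, Sqstm1 and Lamp1 in each library, by group, with black marks for the mean and SD. Ctsb is shorter and Cd63 and Sqstm1 are longer in differentiation medium, and Lamp1 is alike in all groups.

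Per transcript length, the most abundant of the 36 in control proliferation medium were Cd63 at 651 ± 66.5 TPM (SD, n = 3) and Lamp1 at 618 ± 15.7 TPM, which did not differ beyond their spread. Psap followed at 479.7 ± 20.8 TPM. In control differentiation medium Psap was first at 1467 ± 10.2 TPM (SD, n = 2), Lamp1 was next at 946 ± 3.2 TPM and Ctsd after it at 547 ± 6.85 TPM, each step larger than the spread. Cd63 stood at 409 ± 21.6 TPM there, and Gabarap at 436 ± 11.3 TPM was the most abundant autophagy gene. The lowest in both media was Mitf, at 2.99 ± 0.733 and 12.3 ± 0.297 TPM. TPM values of the 2 media are not on 1 scale. In controls, the log2 ratio of TPM in differentiation over proliferation medium had a median of 0.39 over 15251 genes.

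Genes with and without CACGTG in the promoter stretch moved in both directions between the media. In controls, 9 of the 12 genes with a match rose and 3 fell, with a median log2 fold change of 0.27, and of the 19 genes without a match 11 rose, 5 fell and 3 were not called, with a median of 0.28. Lamp1, with its 4 matches shown above, rose by 0.21, whereas Glb1 with 1 match fell. With 4HBP in proliferation medium, 1 of the 12 was called (Lgmn, lower) and 2 of the 19 (Sqstm1 and Hexa, higher).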

How the data were processed

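The authors sequenced RNA of NSC cultures as 11 stranded mRNA libraries with paired reads of 150 bases. They trimmed adapters with cutadapt and quantified genes with RSEM 1.3.0 and Bowtie2 2.2.9 on mm10 (GRCm38). The deposited tables list, for each gene, RSEM's expected counts without normalization, TPM (normalized by RSEM for length and depth), and the effective length in bases (mean over transcripts weighted by their abundance) as a score, which is not normalized. The deposited FPKM values were not used. Not every called pathway gene is reported here.

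Symbols and positions were taken from a later GENCODE annotation of GRCm38 by gene identifier, which matched 99.66% of identifiers. After rounding, expected counts were filtered with filterByExpr, scaled by TMM factors, and tested with edgeR 4.0.16 (glmQLFit and glmQLFTest, two-sided, R 4.3.3) on the libraries of the groups compared, with Benjamini-Hochberg adjustment over all genes tested and calls at adjusted p under 0.05. The interaction was fitted on all 11 libraries. CPM are counts per 1000000 counts of the library. The genes and lists were chosen with earlier results of these data known. All 36 genes may be named. Those called with 4HBP in either medium or for the difference of the effects, and the TFEB family, were given by library. Between the media, the 6 largest rises and 6 largest falls called in controls were given by library. Of each pathway list, the 2 largest rises and falls called in a comparison were named. RSEM divides reads shared by similar genes, such as the LC3 and GABARAP families, so counts of close relatives carry that uncertainty. In simulated counts, edgeR recovered between 97.5% and 100% of 200 genes changed 2-fold, depending on the comparison. Of the genes called there, between 2.96% and 5.21% had not been changed. Within a comparison the simulation gave every gene the same spread, made no library stand apart, and changed only well-counted genes. These rates may therefore not hold for the real libraries. Smaller changes, such as those of the 36 genes with 4HBP, were not simulated, so how often these are missed is not known. Depth was 20822921 to 23438463 counts per library. Replicate numbers come from the sample labels and were not used to pair the libraries in the main tests. The alternatives were scaling by library totals only or by DESeq2 size factors, DESeq2 1.42.0, limma 3.58.1 on log2(CPM + 1) and with voom and group weights, no filter, all libraries in 1 fit, a replicate block, leaving out each library, and, chosen after seeing the data, an offset for effective length.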

Additional observations from a re-analysis of the deposited data

Results flagged for a closer look

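For 6 of the genes read here, the effect of 4HBP differed between the media by a direct test of the difference (edgeR interaction, adjusted p under 0.05 over 15920 genes), and in each the effect in proliferation medium was the larger. Only Sqstm1 belongs to the 36 genes, with a difference of 0.72 on the log2 scale (adjusted p = 0.0142), 4HBP libraries above all controls in 3 of 3 in proliferation medium and below both controls in 3 of 3 in differentiation medium. Among other lysosomal genes, the difference was 0.69 for Ctsc (adjusted p = 0.0110) and 0.64 for Scpep1 (adjusted p = 0.00781). Ctsc was at 22.6, 24.2 and 23.0 CPM with 4HBP and at 22.0 and 23.7 CPM in controls in differentiation medium, where the groups overlapped. Scpep1 was at 41.2, 41.0 and 39.1 CPM with 4HBP and at 45.8 and 41.0 CPM in controls there. The Rag GTPase genes differed by 0.39 for Rragc (adjusted p = 0.0261) and 0.41 for Rragb (adjusted p = 0.0406), and the proton pump gene Atp6v1g1 by 0.35 (adjusted p = 0.0456). Each of the 6 lost the call in at least 1 fit without 1 library, with the highest adjusted p at 0.0861 for Sqstm1, 0.0839 for Ctsc, 0.0635 for Scpep1, 0.162 for Rragc, 0.199 for Rragb and 0.22 for Atp6v1g1, each without a control differentiation library. Groups of 2 or 3 libraries are too small to test for single outlying libraries.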

How the results depend on the processing

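Between the media, the counts of called genes among the 36 kept to within 1.5 times the main value under every alternative, except that 7 in place of 11 autophagy genes were called in controls with the effective length offset, and single libraries moved them to between 16 and 21 lysosome and 8 and 11 autophagy genes in controls, and to between 19 and 23 and 10 and 11 under 4HBP. All genes called ran from 7261 to 9590 in controls and from 9026 to 11254 under 4HBP without single libraries. The share of higher calls moved most with limma on log2(CPM + 1) in controls, at 5847 higher and 3880 lower, beside 4810 and 4821.

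The 4HBP comparisons depended on the setting. In proliferation medium, beside 1074 genes called in all and 2 lysosome and 1 autophagy genes, 1 fit of all libraries called 2668 and 8 lysosome genes, DESeq2 1633, the length offset 662 and 1 lysosome gene, and no filter 1546. Limma on log2(CPM + 1) called 18 genes there, with 0 lysosome and 0 autophagy genes (4371 genes at an unadjusted p under 0.05). Without single libraries, between 107 (without control replicate 1; 137 without control replicate 2) and 1429 genes (without 4HBP replicate 3), 0 to 3 lysosome genes and 0 to 1 autophagy genes were called. In differentiation medium, beside 395 genes and 1 autophagy gene, 1 fit of all libraries called 0 (644 at an unadjusted p under 0.05), limma 0 (2660), DESeq2 275, the length offset 35 and no filter 778. In these except no filter, 0 autophagy genes were called. Without single libraries, 77 (without control replicate 1) to 288 genes and 0 autophagy and 0 lysosome genes were called. For the difference between media, beside 715 genes, DESeq2 called 1086 and 4 lysosome genes, voom 1034 and 4, no filter 1616 and 1, the length offset 355, and limma 264 with 0 autophagy genes. Without single libraries, 124 (without either control differentiation library) to 1100 genes, 0 to 4 lysosome genes and 0 to 1 autophagy genes were called. The causes were not tested.

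With a replicate block, 534 genes, 0 lysosome genes and the 1 autophagy gene were called in proliferation medium, 745 and 2 autophagy genes in differentiation medium, and 156 and 0 autophagy genes for the difference. For libraries with the same number, deviations from the group mean correlated between -0.0612 and 0.018. With groups of 2 or 3 libraries, this cannot show whether they shared a culture or embryo.

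Signs turned as follows. In proliferation medium, Tfeb was at 0.0038 with library totals and 0.000605 with limma, Mitf at -0.017 and Atg7 at -0.0056 with the length offset, and without single libraries they ran from -0.11 to 0.11, -0.065 to 0.11 and -0.023 to 0.075. In differentiation medium, Tfe3 was at -0.051, Neu1 at 0.010, Gabarap at -0.0039 and Becn1 at -0.020 with the length offset, and Tfe3 at -0.0028 with library totals, -0.00255 with limma and -0.0021 with the block, and without single libraries Tfe3 ran from -0.0075 to 0.017 and Tfeb from -0.022 to 0.075. Between the media in controls, the length offset gave 0.32 for Ctsb, -0.062 for Ulk1, -0.037 for Atg7 and 0.28 for Atp6v1d, the block gave -0.0026 for Atp6v0a1, and no filter gave -0.012 for Becn1, and without single libraries Atp6v0a1 ran from -0.0057 to 0.071 and Becn1 from -0.028 to 0.036. Under 4HBP, the length offset gave 0.27 for Ctsb, -0.11 for Ulk1 and 0.17 for Atp6v1d, and for the difference between the effects -0.0020 for Map1lc3b and 0.059 for Ulk1. Depth limits little here, since the lowest of the 36 genes, Mitf, stood at 6.09 CPM or more, far above 3 counts.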

Other observations

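Other regulatory motifs were searched in the same 31 promoter stretches. TGATGCAA, the C/EBP-ATF response element, occurred on either strand in 0 of the 31, against 1.03% of all genes with such a promoter, which says only that these letters are not in these windows. TGACNNNGC, the antioxidant response element core, occurred in 8 of the 31, being 7 of 22 lysosome genes and 1 of 9 autophagy genes, against 14.0% of those genes.

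Under 4HBP, 2 further lysosomal genes had large changes between the media. Ctsk, encoding cathepsin K, rose by 3.10 ± 0.49 on the log2 scale (SE, edgeR adjusted p = 0.000438), beside 1.127 ± 0.60 in controls (adjusted p = 0.126). Its SEs were wide and its levels are not given here, so the size of its change is uncertain. Of the 55 genes in its list, 53 passed the filter on low counts within proliferation medium and 54 between the media. A gene of this list can thus have entered the test through its differentiation libraries. Cd68, encoding a lysosomal glycoprotein of macrophages, fell by 1.12 ± 0.23 under 4HBP (adjusted p = 0.00199), beside -0.68 ± 0.31 in controls (adjusted p = 0.0847). The difference between these pairs of values, which is the interaction of 4HBP with medium, did not pass for Ctsk (adjusted p = 0.228) or Cd68 (adjusted p = 0.585).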
